A study of Mus musculus with 4 samples.

Results

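Small nucleolar RNA (snoRNA) genes were read out of RNA sequencing of mouse embryonic fibroblasts (MEFs) that were *Mbd4*-/- or *Mbd4*+/+, *Mbd4* being the gene of a DNA glycosylase. The members are the rows of the deposited gene table whose name begins with Snora, Snord, SNORA or SNORD, and they were chosen by their read counts, with a sum of at least 20 over the 4 libraries. Of 307 rows with such a name among the 23537 rows of the table, 203 met this rule, of which 89 are box C/D genes and the others box H/ACA genes. The 104 rows left out carried 764 counts together, against 144175 counts on the members. The summed count of a member lay between 21 and 28186 with a median of 124. Just outside the rule, *SNORA25* (ENSMUSG00000064997) had 6 and 5 counts in KO cells against 5 and 3 in WT cells, and just inside it *Snord23* had 4 and 6 against 6 and 6.

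SnoRNAs are short nuclear RNAs that guide the chemical modification of other RNAs, above all of ribosomal RNA. Box C/D snoRNAs (Snord genes) assemble with the methyltransferase fibrillarin and direct 2'-O-methylation, while box H/ACA snoRNAs (Snora genes) assemble with the pseudouridine synthase dyskerin and direct the conversion of uridine to pseudouridine. A few of them act instead in the cleavage and folding of the ribosomal RNA precursor. Most mammalian snoRNAs are cut out of the introns of host genes, many of which encode proteins of the ribosome and the nucleolus, whereas others are carried by long non-coding transcripts that serve mainly as hosts.

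Primary MEFs of strain C57BL/6 came from embryos at day 12.5 post coitum, and 2 *Mbd4*-/- samples (KO) were compared with 2 *Mbd4*+/+ samples (WT), without any treatment. Total RNA was freed of ribosomal RNA and sequenced with a kit that keeps the strand, in single reads of 50 bases. The libraries held 45223089 and 39108275 counts in KO cells, against 47567835 and 42796997 counts in WT cells. Each group is 2 samples described as independent, with no number of embryos or cultures given, so a p-value here reflects the spread of these few samples alone, and that spread may be technical. *Mbd4* itself had 373 and 302 counts in KO libraries, against 663 and 630 in WT libraries. In the quasi-likelihood test of edgeR, adjusted by Benjamini-Hochberg, its log2 fold change was -0.99 (standard error 0.11, adjusted p = 2.8e-06). The transcript was lower but still counted in cells labelled KO, and which part of the gene the allele removes was not stated. Of 10 fibroblast and mesenchyme markers, 7 were called lower in KO cells, where 32.5% of all genes tested were, their summed level being 9892 and 10640 CPM (counts per 1000000 counts of a library) in KO libraries against 17780 and 15940 CPM in WT libraries, with *Dcn* at 5 and 7 counts and *Lum* at 0 and 1 count in KO cells. Of other cell types, the 2 tested neural markers, *Tubb3* (-2.82) and *Nes* (-1.52), were lower. The blood markers *Csf1r* (1.74) and *Ptprc* (-4.80) moved apart, and *Cd68* was not called (-0.08). Of the epithelial markers *Cdh1* was called higher (3.64) and *Epcam* was not called (-0.26). The untested *Krt8* had 2 and 0 counts in KO against 6 and 18 in WT libraries, *Krt18* 0 and 0 against 3 and 7, and *Krt5* 6 and 5 against 0 and 0. No tested endothelial or skeletal muscle marker was called. The part of these cell type markers in the snoRNA differences was not tested, and in such bulk samples fewer cells of a type and less RNA per cell cannot be told apart.

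Relative to other genes, fewer snoRNA reads were counted in KO cells, with a negative log2 fold change in 154 of 178 members tested. A member was called where its adjusted p was under 0.05 in the edgeR fit of all 15538 genes that passed the filter on low counts. Of these members, 79 were lower in KO cells (44.4%), 7 were higher (3.93%) and 92 were not called. Over all genes tested, 32.5% were called lower and 34.3% higher in KO cells. In this fit the share of members called lower was thus moderately above the background, and the share called higher was far under it. The excess of lower calls did not hold in every fit, as given below. The median log2 fold change (KO over WT) was -0.55 over the tested members, which ranged between -4.17 and 3.46, and 0.02 over all genes tested. Both KO libraries lay below both WT libraries in 106 tested members, against 39.8% of all genes, and above them in 13, against 43.0% of all genes. The other 59 members overlapped between the genotypes. The 25 members that failed the filter had at most 36 counts in all, and a low member could pass it through its higher group alone, so that counts over the tested members do not speak for all 203. These counts also depend on the scaling, which was computed over all genes. With scaling factors computed over the members themselves, 19 were higher and 23 lower, with a median of 0.05 for the members and 0.61 for all genes. With DESeq2 in place of edgeR, 3 members were higher and 47 lower, against 4500 and 4775 of all 15538 genes. The share of members called lower was then under that of all genes. The members' median was -0.60 without KO replicate 1, -0.63 without KO replicate 2, -0.72 without WT replicate 1 and -0.39 without WT replicate 2. The median of all genes was 0.02 in each of these fits. Without either KO replicate or without WT replicate 2, the share of members called lower was not above that of all genes.

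**Figure D1:**
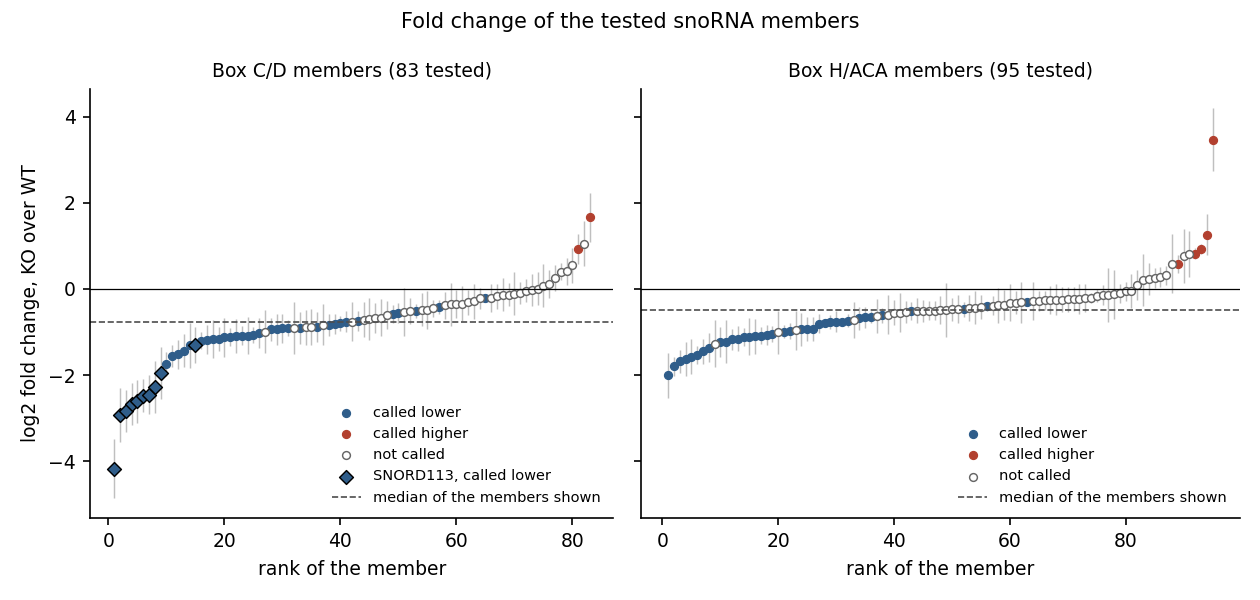
Log2 fold change (KO over WT) of each tested member with its standard error, ranked within the box C/D genes (left, 83 members) and the box H/ACA genes (right, 95 members). Filled points passed an adjusted p of 0.05, diamonds are SNORD113 copies and the dashed lines are the medians of -0.76 and -0.49, with 154 of the 178 points below 0 and the 9 lowest box C/D points all SNORD113 copies.

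Falls were called in both box classes. Among the 83 tested box C/D members, 42 were lower (50.6%, against 32.5% of all genes) and 2 higher, with a median of -0.76. Without the SNORD113 copies, 32 of 73 were lower (43.8%), with a median of -0.67. Among the 95 tested box H/ACA members, 37 were lower and 5 higher, with a median of -0.49. The share of these called lower, 38.9%, was near the 32.5% of all genes. With scaling over the members alone these medians were -0.16 and 0.12. The box H/ACA numbers moved with WT replicate 2. Without it, 27 were lower and 12 higher with a median of -0.23, and without WT replicate 1, 53 were lower and 4 higher with a median of -0.66. Of the 65 box H/ACA members with at least 100 summed counts, 58 were higher in WT replicate 2 than in WT replicate 1, by a median ratio of 1.35, while the same ratio was 1.04 between the KO replicates and 0.998 over all genes between the WT replicates. The box C/D members differed less between the WT replicates, with a median ratio of 1.13, and by 0.876 between the KO replicates. The share of members called lower rose with abundance, but the size of the change did not rise steadily. With the members divided by mean CPM into 4 bins of 50 or 51, the share was 23.1% in the lowest bin, of which 26 were tested. It was 35.3%, 44.0% and 64.7% in the bins above. The median log2 fold changes of the 4 bins, in the same order, were -0.29, -0.70, -0.51 and -0.58. The part of read depth in the rising share was not tested, and no share of all genes at like counts was taken.

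The deepest falls were among the copies of SNORD113, a family of box C/D genes in the imprinted *Dlk1*-*Dio3* region of chromosome 12, whose copies stand in a tandem array and have no known target in ribosomal RNA. The 11 copies among the members were 71 to 75 bases long and shared 52.4% to 84.0% of their bases in pairs. Of these, 8 lie on the strand of *Rian*, a long non-coding RNA expressed from the maternal chromosome, and the other 3 have no annotated host. All 10 tested copies were lower in KO cells, where 32.5% of all genes were, with a median log2 fold change of -2.54. As neighbours in 1 array, 8 of them in 1 host, the copies do not count as separate results. With scaling over the members alone 9 were called and the median was -1.95. Most copies had under 10 counts in each KO library, so they could pass the filter on low counts through their WT libraries alone. With 10 counts asked in every library 1 copy was left, lower at -1.29. With no filter all 11 were lower, with a median of -2.63. The copy of highest count, the one of deepest fall, the one of smallest fall and one without a host are printed here from the mm9 genome, because they show how far the copies differ between the boxes. Capitals mark the C box (TGATGA) in the first 15 bases and the D box (CTGA) in the last 15 bases of the annotated gene, where these letters occur.
SNORD113 ENSMUSG00000064417, chr12:110894555-110894626 (plus strand): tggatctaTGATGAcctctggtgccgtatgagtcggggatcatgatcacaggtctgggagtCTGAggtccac
SNORD113 ENSMUSG00000064496, chr12:110889634-110889706 (plus strand): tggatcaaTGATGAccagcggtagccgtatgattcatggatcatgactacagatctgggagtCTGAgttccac
SNORD113 ENSMUSG00000087885, chr12:110881958-110882028 (plus strand): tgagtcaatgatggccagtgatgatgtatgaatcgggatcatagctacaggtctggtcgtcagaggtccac
SNORD113 ENSMUSG00000084487, chr12:110923172-110923244 (plus strand): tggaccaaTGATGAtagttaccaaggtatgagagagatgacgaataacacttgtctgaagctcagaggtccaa

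The SNORD113 copy of highest count (ENSMUSG00000064417) had 10 and 6 counts in KO libraries against 44 and 43 in WT libraries. The copy of deepest fall (ENSMUSG00000064496) had 1 count in each KO library against 20 and 19 in WT libraries. The copy of smallest fall (ENSMUSG00000087885) had 10 in each KO library against 24 in each WT library. In none of the 11 copies did a KO library reach the lower WT library, while both KO libraries lay below both WT libraries in 39.8% of all genes tested. The log2 fold change was -2.48 (standard error 0.38, adjusted p = 6.8e-05) for the first of these, -4.17 (standard error 0.69, adjusted p = 0.00011) for the second and -1.30 (standard error 0.41, adjusted p = 0.012) for the third, all by edgeR. Since the second copy had 2 counts in all in KO cells, its WT level was 20.2-fold the KO level with an exact 95% interval of 5.23 to 172.5, which covers counting error only. The copies outside *Rian* behaved alike in direction. ENSMUSG00000084487 had 4 and 4 counts in KO against 34 and 23 in WT libraries, ENSMUSG00000084604 had 2 and 2 against 15 and 16, and ENSMUSG00000064720, too low for the fit, had 2 and 0 against 10 and 19. The remaining copies had 3 to 7 counts in a KO library and 11 to 41 in a WT library. Summed over the family, the level was 1.12 and 1.09 CPM in KO cells and 5.52 and 7.06 CPM in WT cells. Several of these calls rest on few reads. ENSMUSG00000064679 (-2.28), ENSMUSG00000065013 (-1.95) and ENSMUSG00000087885 lost their call when 1 KO library was left out, the first at -2.17 and -2.38, the second at -2.01 and -1.90 and the third at -1.19 and -1.40. Without WT replicate 2 the first stood at -1.98 and the second at -1.29, also uncalled.

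**Figure D2:**
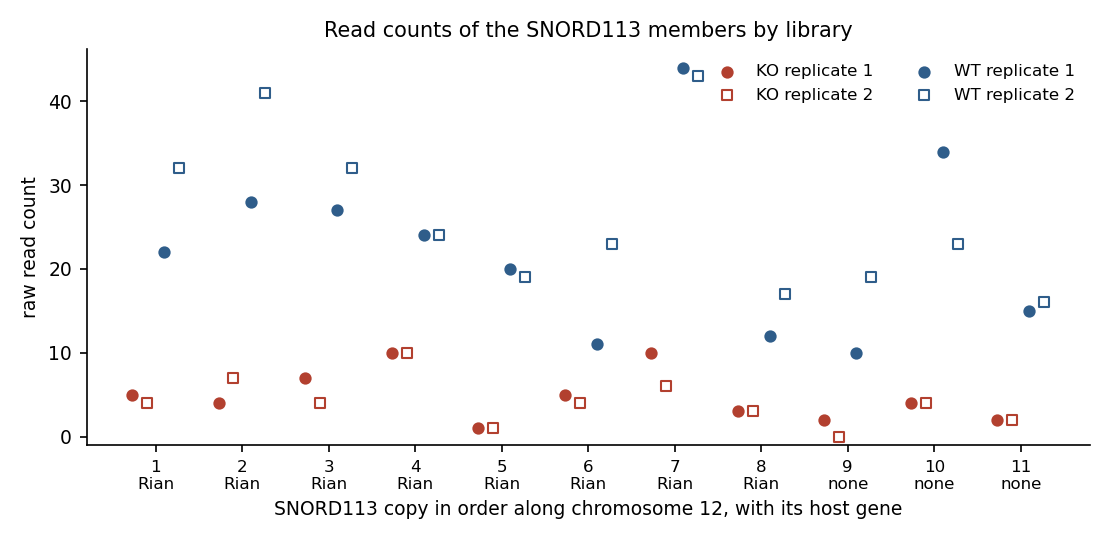
Raw read counts of the 11 SNORD113 copies in the 2 KO and 2 WT libraries, with copies ordered along chromosome 12 and labelled by host gene. KO counts stay between 0 and 10 and WT counts between 10 and 44, with each WT point above both KO points of its copy.

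The host RNA and its neighbours moved in the same direction. *Rian* stood at 72.6 and 68.5 CPM in KO cells against 346.5 and 370.4 CPM in WT cells, and its log2 fold change was -2.34, with a standard error of 0.07 (edgeR, adjusted p = 3.8e-12). The maternally expressed *Meg3* had 35.6 and 36.5 CPM against 106.4 and 124.5 CPM (-1.68), and the microRNA host *Mirg* had 4.90 and 4.90 CPM against 19.9 and 21.9 CPM (-2.09), both called lower. Genotypes did not overlap for any of the 3. Reads of 50 bases that fall within a snoRNA also fit the unspliced host RNA, and the 2 sources cannot be told apart in these counts. No gene named for SNORD114, SNORD115 or SNORD116 was among the members.

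A second set of members is known for a part in processing or maturing the ribosomal RNA precursor, some of them also guiding a modification. Of the 7 such members 5 were lower in KO cells, where 32.5% of all genes were, and none was higher. The falls of *Snora73a* and *Snord13* depended on WT replicate 2, as given below. The box H/ACA U17 RNAs *Snora73a* and *Snora73b* and the box C/D U8 RNA *Snord118*, which is needed for the large subunit RNAs, belong to this set. *Snora73b*, the member of highest count, and *Snord118*, transcribed on its own without a host, are shown with the ACA of the 3' end (in the last 6 bases) or the D box in capitals.
Snora73b, chr4:131908237-131908441 (minus strand): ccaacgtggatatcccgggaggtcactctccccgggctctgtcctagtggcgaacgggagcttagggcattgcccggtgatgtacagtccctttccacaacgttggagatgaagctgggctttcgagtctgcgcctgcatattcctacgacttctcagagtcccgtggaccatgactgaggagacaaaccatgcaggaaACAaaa
Snord118, chr11:68886929-68887063 (plus strand): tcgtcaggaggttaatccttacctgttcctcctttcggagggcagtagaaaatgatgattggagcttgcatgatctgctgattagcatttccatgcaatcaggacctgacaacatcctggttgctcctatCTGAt

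*Snora73b* had 5991 and 4747 counts in KO libraries against 8854 and 8594 in WT libraries. Its level was 120.6 ± 7.70 CPM in KO cells against 203.7 ± 8.55 CPM in WT cells (SD, n = 2 each), with a log2 change of -0.76 (standard error 0.06, adjusted p = 2.2e-07, edgeR quasi-likelihood test). It took 19.6% of all member counts, and per kilobase of gene its mean of 791 CPM was the highest of the 10 members of highest mean CPM. *Snora73a*, which is 96.6% identical to it and shares stretches of at least the read length, had 139 and 168 counts in KO libraries against 208 and 664 in WT libraries, so the reads of the pair may have been divided uncertainly. Its log2 change of -1.57 (standard error 0.40, adjusted p = 0.0035) rested on WT replicate 2, without which it was -0.45, was -2.23 without WT replicate 1, and lost its call without KO replicate 1 (-1.34). Both genes lie in *Rcc1* (-1.68), on whose strand *Snora73a* also overlaps an exon of the non-coding *Snhg3* (-1.21). The U17-type *SNORA73* gene within *Rpsa* had 2763 and 2259 counts against 2900 and 3446 and was lower by less (-0.40, standard error 0.10, adjusted p = 0.0029), with -0.23 without WT replicate 2.

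*Snord118* had 43 and 27 counts in KO libraries against 93 and 131 in WT libraries. The lower WT library lay clearly above both KO libraries. Its log2 fold change was -1.74 (standard error 0.28, adjusted p = 8.6e-05 from edgeR). *Snord13*, the U13 RNA, which guides acetylation of the small subunit RNA and likewise lacks a host, had 17 and 42 counts against 32 and 109. Here the genotypes overlapped, and the call (-1.31, standard error 0.53, adjusted p = 0.044) was lost without KO replicate 1 (-0.71) and without WT replicate 2 (-0.13), while the change was -2.22 without KO replicate 2 and -1.99 without WT replicate 1. *Snord14a*, an RNA of small subunit processing, had 31 and 22 counts against 47 and 31 and was not called (-0.60, adjusted p = 0.11). The other *SNORA73* gene, within *N4bp2*, had 7 and 11 counts against 5 and 10 (0.21, adjusted p = 0.77). U3, the box C/D RNA at the centre of small subunit processing, is named differently in the table and is not a member. Its main gene had 9419 and 8134 counts in KO libraries against 15622 and 23347 in WT libraries, with a log2 change of -1.22 (standard error 0.15, adjusted p = 9.1e-06).

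Abundant members did not all move one way. The 10 members of highest mean CPM held 63.0% of the member counts. Of these, 5 were lower in KO cells (50%, against 32.5% of all genes), 3 higher (30%, against 34.3%) and 2 not called. The share called higher was near that of all genes. *SNORA32* within *Taf1d* (ENSMUSG00000065265) had 1513 and 1239 counts in KO libraries against 2335 and 2210 in WT libraries, a fall as tight as that of *Snora73b* (-0.78, standard error 0.07, adjusted p = 5.4e-07). *Snord17*, the longest box C/D member, had 1760 and 1368 against 1798 and 1679, with a change of -0.21 (standard error 0.08, adjusted p = 0.030) that was no longer called without KO replicate 2 (-0.13). *Snora74a* had 4232 and 3313 against 4134 and 4804, so that its counts overlapped between the genotypes, while its CPM, at 89.0 and 80.4 in KO against 92.3 and 117.3 in WT libraries, did not. Its change of -0.31 (standard error 0.09, adjusted p = 0.011) lost the call without KO replicate 2 (-0.24) or WT replicate 2 (-0.16), and was -0.47 without WT replicate 1. With scaling over the members alone, *Snord17* (0.38), *Snora74a* (0.30) and the *SNORA73* gene in *Rpsa* (0.21) turned positive. For *Snora78*, with 1756 and 1637 counts in KO against 1463 and 2165 in WT libraries, and *SNORA84* within *Iars*, with 626 and 547 against 465 and 884, the WT libraries enclosed both KO libraries. Neither was called (-0.16 and -0.27), and both turned positive without WT replicate 2, to 0.20 and 0.31, and were called lower without WT replicate 1, at -0.47 and -0.71.

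**Figure D3:**
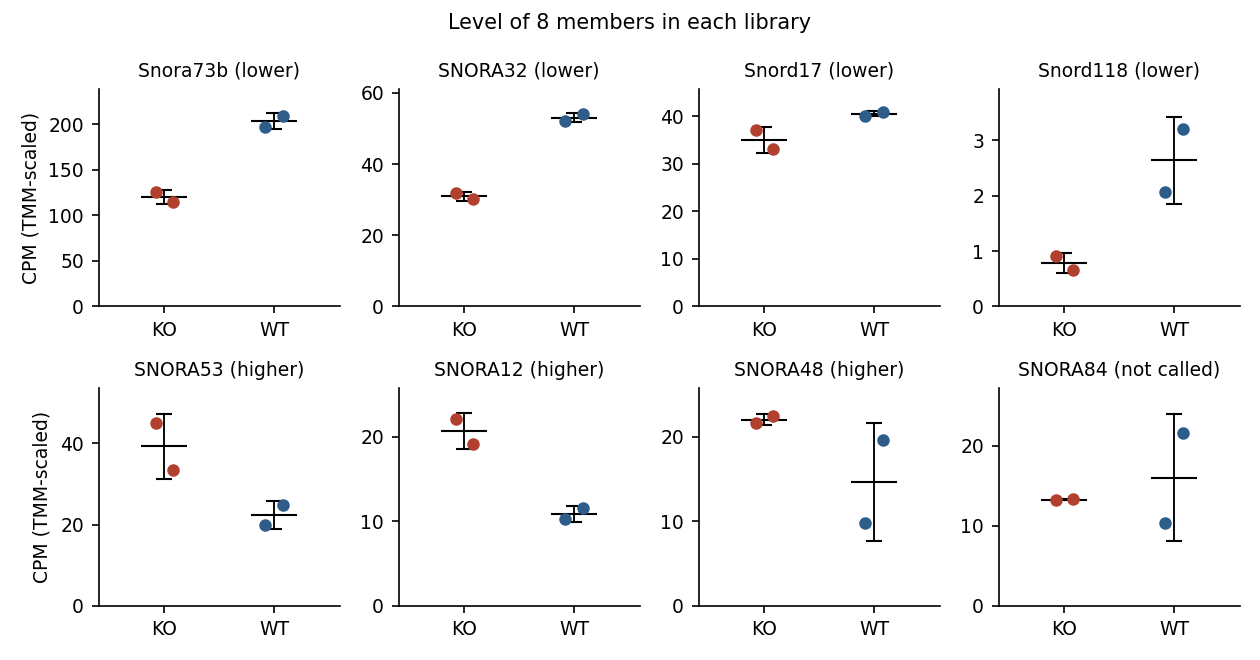
Level of 8 members in CPM (scaled by TMM) in KO and WT cells, with 2 libraries per genotype as points, the mean as a horizontal line and the SD as bars. *Snora73b*, *SNORA32* and *Snord118* separate downward in KO cells, *SNORA53* and *SNORA12* separate upward, and the 2 WT libraries of *SNORA48* and *SNORA84* stand far apart.

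In KO cells 7 members were higher. The 3 box H/ACA genes with the clearest rise in counts or in fold change are printed with the ACA in capitals where it lies in the last 6 bases.
SNORA12, chr19:44188469-44188614 (minus strand): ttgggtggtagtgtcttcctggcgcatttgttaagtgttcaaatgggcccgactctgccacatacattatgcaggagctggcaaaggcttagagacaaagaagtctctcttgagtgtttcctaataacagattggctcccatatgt
SNORA53, chr10:90581036-90581281 (minus strand): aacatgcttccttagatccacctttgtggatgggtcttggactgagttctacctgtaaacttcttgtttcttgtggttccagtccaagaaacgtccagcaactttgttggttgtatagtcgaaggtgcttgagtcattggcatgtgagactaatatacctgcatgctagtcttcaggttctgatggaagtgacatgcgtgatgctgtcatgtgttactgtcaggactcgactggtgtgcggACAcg
SNORA35, chrX:143918836-143918964 (minus strand): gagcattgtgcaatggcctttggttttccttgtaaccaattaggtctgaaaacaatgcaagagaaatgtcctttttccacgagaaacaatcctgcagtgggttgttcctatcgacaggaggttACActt

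*SNORA12*, in an intron of *Cwf19l1*, had 1053 and 789 counts in KO libraries against 458 and 473 in WT libraries. *SNORA53*, in *Slc25a3*, had 2136 and 1383 counts against 889 and 1018. In both, the lower KO library exceeded the higher WT library. The log2 fold changes were 0.93 (standard error 0.11, adjusted p = 4.4e-06) and 0.82 (standard error 0.13, adjusted p = 7.8e-05) by edgeR's quasi-likelihood test. The host of *SNORA12* rose by less (0.39), and the host of *SNORA53*, a mitochondrial phosphate carrier, was at 438.3 and 423.6 CPM in KO against 419.3 and 409.9 CPM in WT cells (0.06, adjusted p = 0.41). *SNORA48* within *Nap1l1* (ENSMUSG00000087819) had 1027 and 927 counts in KO against 437 and 804 in WT libraries, and its call (0.59, standard error 0.21, adjusted p = 0.023) was lost without either KO library (0.62 and 0.56) and without WT replicate 1 (0.16). The change was 1.14 without WT replicate 2. It shares no stretch of 50 bases with another member.

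The other 4 rises were in rare members. *SNORA35*, which lies on the X chromosome within *Lrch2*, had 20 and 28 counts in KO libraries against 0 and 4 in WT libraries, the largest rise of all members tested (3.46, standard error 0.73, adjusted p = 0.00085). The estimate was 2.44 without WT replicate 1 and 7.59 without WT replicate 2, where it depends on a WT count of 0. Its host rose as well, with 44.2 and 50.2 CPM against 6.97 and 7.06 CPM (2.75, standard error 0.09, adjusted p = 2.8e-11). *Snord98* had 34 and 33 counts in KO against 17 in each WT library (0.93, adjusted p = 0.029). *SNORA17* (ENSMUSG00000088984) had 18 and 17 counts against 6 and 8 (1.26, adjusted p = 0.033), and *SNORD88* within *Casp2* (ENSMUSG00000084422) had 28 and 12 against 9 and 3 (1.66, adjusted p = 0.019). Their genotypes did not overlap, but *Snord98* and *SNORA17* lost their call without any of the 4 libraries, at 0.84 to 1.01 and 1.0 to 1.5. *SNORD88* lost it without KO replicate 1 (1.05) or WT replicate 2 (1.11) and stood at 2.56 without WT replicate 1.

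Some of the larger falls outside SNORD113 follow, a selection made in part after their values were seen and not a full list. *SNORA51*, in *Nop56*, had 5 and 7 counts in KO libraries against 17 and 30 in WT libraries (-2.0, standard error 0.52, adjusted p = 0.0039), with the call lost without KO replicate 1 (-1.68) or WT replicate 2 (-1.5). It overlaps an exon of its host on the same strand. *SNORA74* in *Snhg4* (ENSMUSG00000088059) had 183 and 124 counts against 392 and 618 (-1.79, standard error 0.22, adjusted p = 8.5e-06). *Snora16a* in *Snhg12* had 30 and 48 against 123 and 120 (-1.68, standard error 0.26, adjusted p = 7.7e-05). *Snora31* in *Tpt1* had 52 and 47 against 129 and 147 (-1.53, standard error 0.21, adjusted p = 2.7e-05). In each of these 4 the genotypes were well apart, and their hosts were lower too, at -1.17 for *Nop56*, -1.08 for *Snhg4*, -1.28 for *Snhg12* and -0.65 for *Tpt1*. *Snord32a* and *Snord35a*, carried by the ribosomal protein gene *Rpl13a* and known from work on lipid stress in mammalian cells, had 24 and 14 counts against 38 and 45, and 27 and 33 against 74 and 57. Both were lower (-1.18, adjusted p = 0.0077, and -1.16, adjusted p = 0.0023), against -0.49 for *Rpl13a*. The first lost its call without KO replicate 2 (-0.94) and the second without KO replicate 1 (-0.92).

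The members were then set beside their host genes. By the mm9 annotation 187 members lay within 130 hosts on the same strand, 168 of them in protein-coding genes, 17 in long intergenic non-coding RNAs and 2 in processed transcripts, while 16 had no host. Where several genes on its strand held a member, the one of highest mean CPM was taken as its host. The division into coding and non-coding hosts depends on this choice. For 165 members both the snoRNA and its host were tested, with 112 hosts. Of these hosts 80 were lower in KO cells, where 32.5% of all genes were, 8 were higher and 24 were not called. Fold changes of members and hosts had the same sign in 146 of 165 pairs and correlated across genes at a Pearson r of 0.72 (Spearman 0.52, n = 165), or 0.61 (0.44, n = 157) without the *Rian* copies. Members of a host share its value and the same 4 libraries, so this is a description. The change was negative in 154 of the 178 tested members and most hosts were lower too. Many pairs would therefore share a sign without any link between member and host. As for *Rian*, reads of an unspliced host RNA can also be counted on its members. Part of this agreement may therefore be built into the counts, and how much was not tested. The member differed from its host by a median of -0.02 on the log2 scale (quartiles -0.38 and 0.29), and 153 pairs lay within 1. Both were lower in 68 pairs, 5 members were lower with an uncalled host, and none was lower with a higher host. In 61 pairs the host was lower and the member was not called.

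**Figure D4:**
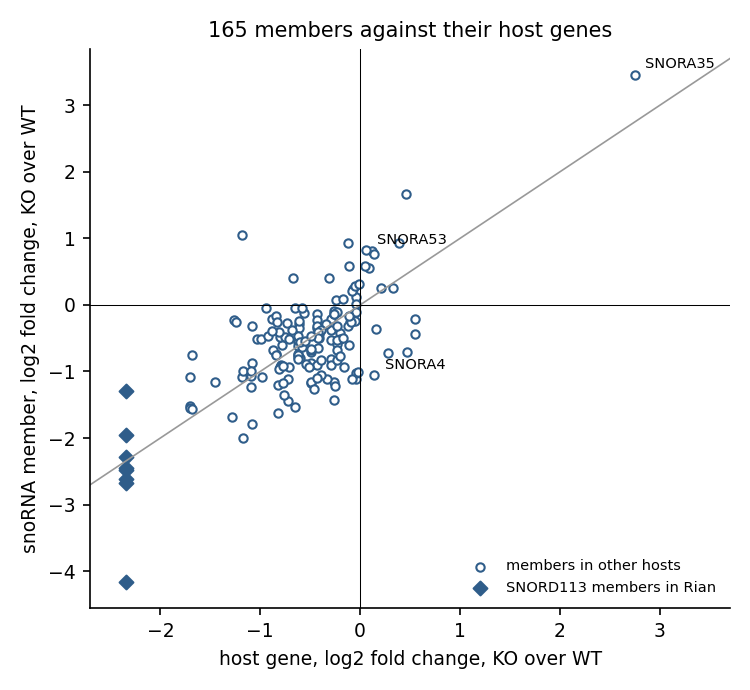
Log2 fold change (KO over WT) of 165 members against that of their host genes, with the grey line at equality and diamonds for the SNORD113 copies in *Rian*. The points scatter around the line, with *SNORA35* and its host at the upper right, *SNORA53* above a host near 0, and *SNORA4* below one.

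The larger falls in non-coding hosts were mostly those of the copies in *Rian*. Of the 19 members in non-coding hosts, all tested, 15 were lower (79%, against 32.5% of all genes) with a median of -1.36. Of the 11 outside *Rian*, 7 were lower (63.6%) with a median of -0.70. Of 146 tested members in coding hosts, 58 were lower and 6 higher, with a median of -0.51. The share called lower in coding hosts, 39.7%, was near that of all genes. Within a host the members did not always move alike. All 7 members tested in *Taf1d*, an RNA polymerase I factor gene, were lower, with log2 fold changes of -0.81 to -0.47, beside -0.62 for the host, although *SNORD5*, *SNORA18*, *SNORA40* and *SNORA1* lost the call without at least 1 library (-0.77 to -0.37 in those fits) and *SNORD5* and *SNORA18* turned positive with scaling over the members (0.05 and 0.12). *SNORA8*, at the lower end of that range, stood at -0.28 without WT replicate 2 and -1.22 without WT replicate 1. All 3 members in *Gnl3*, which encodes the nucleolar protein nucleostemin, were lower, with *Snord69* at -1.55, *SNORD19B* at -1.52 and *Snord19* at -1.08, beside -1.70 for the host. All 3 in *Rps12* were lower as well (-0.77 to -0.42, beside -0.20 for the host, itself not called without KO replicate 1 at -0.17), 2 of them, *SNORD101* and *Snord100*, no longer without either KO library (-0.56 to -0.33), and these 2 and the host turned positive with scaling over the members (0.17, 0.08 and 0.40). In *Nop58* and in *Ncl*, which encodes nucleolin, none of the 4 and 3 members was called, while the hosts were called lower (-0.43 and -0.61), *Nop58* being at 0.15 with scaling over the members. In *Rpl23a*, which was not called (-0.04, adjusted p = 0.55), *Snord42b* had 8 and 9 counts in KO against 18 in each WT library (-1.12), *Snord4a* had 26 and 13 against 43 and 34 (-1.03), and *Snord42a* had 30 and 18 against 30 and 16 (0.01). *Snord42b* overlaps an exon of *Rpl23a* on its own strand, and *Snord4a* and *Snord42a* overlap *Tlcd1* exons on the other strand, which limits these counts. The call of *Snord42b* was lost without any of the 4 libraries (-1.31 to -0.93), that of *Snord4a* without KO replicate 2 (-0.71) or WT replicate 1 (-0.92). In the other hosts of at least 3 members, 2 of 5 were lower in *Rpl4*, and 2 of 3 each in *2410006H16Rik*, *Rabggtb*, *Rpl17* and *Rpsa*. Of these, *SNORD18*, *Snord49a*, *Snord65*, *SNORD45*, *Snord45b* and the *SNORD58* pair each lost the call without 1 of the KO libraries (-0.66 to -0.44 in those fits).

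A few members parted from their host. *SNORA4* had 168 and 111 counts in KO libraries against 259 and 293 in WT libraries (-1.05, standard error 0.18, adjusted p = 0.00015), while *Eif4a2*, a translation initiation factor gene, was at 587.6 and 547.9 CPM against 512.4 and 521.6 CPM (0.14, adjusted p = 0.065). The 2 *SNORD63* genes of *Hspa9* pointed apart, one with 14 and 12 counts against 6 and 6 (1.05, adjusted p = 0.090) and one with 13 and 7 against 22 and 19 (-1.08, adjusted p = 0.042), beside -1.18 for the host. These were picked after their values were seen, and the differences between member and host carry no test. Overlap with other genes limits some members. An overlap was found for 10 members with an exon on their own strand, *SNORA4* among them, and of the 9 tested 6 were lower (66.7%, against 32.5% of all genes). Without these, 73 of 169 tested members were lower (43.2%) and 7 higher. A stretch of 50 bases was shared with another member by 19, and of the 14 tested 5 were lower (35.7%), a share near that of all genes.

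Genes of the snoRNA machinery were also lower. All 8 measured genes of the snoRNP core were lower in KO cells, with a median of -0.65. With scaling over the members alone, 2 of them were called lower, 3 had a positive change and the median was -0.06. They encode the box C/D proteins, such as *Nop56* at 134.0 and 125.7 CPM in KO against 306.4 and 278.5 CPM in WT cells (-1.17) and *Fbl*, fibrillarin (-0.68), and the box H/ACA proteins, such as *Nhp2* (-1.14) and *Dkc1*, dyskerin (-0.80). Of 17 assembly and transport genes 11 were lower, among them *Naf1* (-1.13), *Nufip1* (-0.98), *Rpap3* (-0.78) and *Ruvbl2* (-0.68), and 1, *Pih1d1*, was higher (0.55). Of a list of 12 measured non-coding host genes 9 were lower and none higher, while *Gas5*, host of many box C/D genes, was not called (-0.13, adjusted p = 0.076). With a single host taken per member, only *Rian*, *Snhg4*, *Snhg12* and *Snhg9* of this list were assigned a member. *Snhg3* is also on the list, and *Snora73a*, assigned to *Rcc1*, overlaps an exon of it on the same strand. *Rian*, *Meg3* and *Mirg*, all lower, are neighbours in the same imprinted region and do not count as separate evidence. Of 23 ribosomal RNA processing factors and polymerase I genes 19 were lower and 2 higher. These lists stand beside a background of 32.5% of genes lower, and with scaling over the members alone 1 assembly gene, 6 non-coding hosts and 2 processing factors were called lower and 5, 0 and 4 higher.

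Summed levels put the members beside other small nuclear RNAs. The members took 755.9 and 719.1 counts per 1000000 counts of the library in KO cells, against 787.2 and 1038 in WT cells. Both KO libraries were below both WT libraries, but WT replicate 1 was near them. The means were 737.5 ± 26.0 and 912.6 ± 177.3 (SD, n = 2 each), a difference of -175.1 with an exact two-sided permutation p of 0.3333, the smallest this design allows. The difference was -49.7 without WT replicate 2 and -300.4 without WT replicate 1. In TMM-scaled CPM, box C/D members summed to 109.1 and 100.6 in KO against 141.3 and 159.9 in WT libraries, and box H/ACA members to 610.1 and 581.7 against 694.8 and 924.4. The 10 U3 rows were lower in KO libraries too, at 199.2 and 198.5 CPM against 350.5 and 571.7 CPM. Small Cajal body RNAs (scaRNAs), which share the boxes but guide modification of spliceosomal RNAs, had a higher sum in KO libraries. Their 26 rows summed to 979.8 and 926.7 CPM in KO against 605.1 and 623.2 CPM in WT libraries, of which *Scarna10* made up 630.5 and 573.9 against 308.1 and 320.0 CPM (0.94, standard error 0.06, adjusted p = 2.5e-08). Of 19 scaRNA genes tested, 5 were higher (26.3%, against 34.3% of all genes) and 1 lower, with a median of 0.13, so the summed rise was mainly that of *Scarna10*. The 7SK rows, for the RNA that restrains transcription elongation, summed to 17390 and 18180 CPM in KO against 10580 and 11200 CPM in WT libraries. Spliceosomal RNA rows did not separate, with 288.8 and 285.6 CPM against 225.0 and 456.7 CPM, and their WT replicate 2 was high like that of the box H/ACA members.

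**Figure D5:**
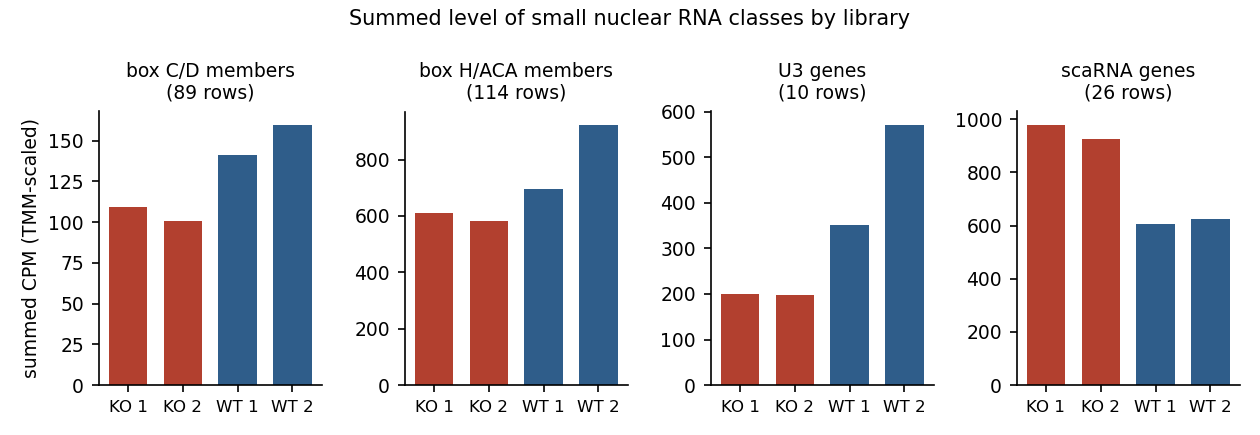
Summed level in TMM-scaled CPM of the box C/D members, the box H/ACA members, the U3 rows and the scaRNA rows, one bar per library. KO bars are below WT bars in the first 3 panels and above them for scaRNAs, and WT replicate 2 exceeds WT replicate 1 most in the U3 and box H/ACA panels.

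The box letters occurred in most members. In mm9, 202 of the 203 members could be placed. Box C/D members were 64 to 238 bases long with a median of 76, and box H/ACA members 100 to 246 bases with a median of 133. On the member's own strand, TGATGA occurred in the first 15 bases of 48 of 89 box C/D members (53.9%) and in none of the stretches of the same length as the gene just upstream, searched at the same positions. CTGA occurred in the last 15 bases of 76 (85.4%), against 7.87% of the upstream stretches. Both were found in 48.3%. ACA occurred in the last 6 bases of 97 of the 113 box H/ACA members placed (85.8%), against 4.42% of the upstream stretches. Degenerate boxes were not searched, and a gene without these letters may still carry its box in another form or place.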

How the data were processed

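Total RNA of 2 KO and 2 WT MEF samples was sequenced after removal of ribosomal RNA. The authors processed the reads with CASAVA 1.8.2, TopHat2 and Bowtie against mm9 and made raw read counts per gene with HTSeq 0.5.4p3, and these deposited counts of whole reads were used. The strand setting, the treatment of overlapping genes and of reads with several matches are not given in the sources used here, so genes that overlap or resemble each other are uncertain. The table also holds 5 columns of normalized counts, in part per kilobase, and the authors' own comparison (log2 ratio, p and adjusted p, named DESeq2 in the header), and none of these were used.

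Counts of all genes were fitted in R 4.3.3 with edgeR 4.0.16 (filterByExpr, TMM scaling, quasi-likelihood F test, genotype as the only term), with Benjamini-Hochberg adjustment over the 15538 genes tested and a threshold of 0.05. Standard errors of fold changes were derived from the F statistic. The scripts were tested on simulated data. Levels are CPM on TMM-scaled library sizes. The common biological coefficient of variation was 0.0597. Host genes and overlaps came from the mm9 annotation, and sequences from the mm9 genome. Ratios with few counts have exact 95% intervals that cover counting error only. Scipy 1.17.1 gave the exact permutation test and matplotlib 3.10.9 the plots, in Python 3.11.15. Alternatives were other scalings and filters, DESeq2 1.42.0, limma-voom (limma 3.58.1), the replicate number as a block, a stricter threshold and each library left out.

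Members, gene lists and the rule for naming were chosen with earlier results of these data known. Named were the 10 largest rises and falls among called members, the 10 of highest mean CPM, hosts of at least 3 members with those members, the listed processing, *Rpl13a* and SNORD113 to SNORD116 snoRNAs, up to 4 genes per direction of each machinery and host list, and *Mbd4*. Beyond this rule, U3, scaRNA and marker genes, *Gas5*, *Snhg3* and the single members named for parting from their host were added after their values were seen, as were some members with large falls. Some genes are not reported here.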

Additional observations from a re-analysis of the deposited data

How the results depend on the processing

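The members' median log2 fold change stayed negative (-0.63 without KO replicate 2, for example) under all alternatives except scaling over the members alone, where it was 0.05 and, by construction, the members are centred near 0. Calls counted as higher numbered 7, lower 79. They numbered 19 and 23 with that scaling, and 3 and 47 with DESeq2. Asking for 10 counts in every library gave 4 higher, and the stricter limits, an adjusted p of 0.01 and a log2 change of 2 either way, gave 1 higher and 9 lower. Library totals in place of TMM shifted the median of all genes to 0.17 and that of the members to -0.40. Over the fits without 1 library each, where the lone sample of a genotype is assumed to vary like the others, higher calls ranged between 3 and 13, lower calls between 49 and 97 and the median between -0.72 and -0.39. In all 4 of these fits, 37 lower and 3 higher members kept their call. The difference in the share of counts ranged between -300.4 and -49.7. The replicate number as a block gave 9 higher and 78 lower with a median of -0.56, and the numbers were not taken to pair the samples, since no label says so and there are only 2 pairs (correlation of deviations -0.029 over all genes and 0.24 over the members tested).

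With scaling over the members alone, directions turned for *Snora74a* (0.30), *SNORA73* in *Rpsa* (0.21), *Snord17* (0.38), *SNORD5* (0.05), *SNORA18* (0.12), *Snord49a* (0.01), *SNORD101* (0.17) and *Snord100* (0.08), and for the hosts *Rpl4* (0.30), *Nop58* (0.15), *2410006H16Rik* (0.35), *Rpl17* (0.10), *Rpl23a* (0.55), *Rps12* (0.40) and *Rpsa* (0.17). *Snora78* (0.20) and *SNORA84* (0.31) turned without WT replicate 2 and were called lower without WT replicate 1 (-0.47 and -0.71). Over 95 named genes and the alternatives, 1052 of 1219 values kept direction and call, 142 lost the call, 8 gained one and 17 turned. The cause of these changes was not tested. With 2 samples per genotype and a median of 124 counts per member over all libraries, small changes of rare members were not detectable at this depth.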
